A study of Mus musculus with 20 samples.

Results

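The genes described here were 10 protein-coding genes that lie in PML domains and are nevertheless transcribed in mouse embryonic fibroblasts (MEFs), namely Rcn1, Med10, Mrpl3, Msl3, Trnt1, Hpcal1, Crls1, Ythdf3, Sgcd and Pdgfra. They were chosen by 2 measured values, at least 50% of the gene body inside a region called for PML in WT cells and RNA present in fibroblasts, so their PML cover and their RNA levels describe the choice and carry no test. Of 19802 protein-coding genes with RNA values and coordinates, 2114 had at least 50% of their body in a WT PML region, and 42 of these had at least 1 FPKM (sequenced fragments of a gene, corrected for the length of its transcript and for the number mapped in the library) in all 4 RNA tables. The 10 genes are among these 42, the other 32 served for comparison, 2007 genes were under 1 FPKM in all 4 tables and are called silent below, and 65 lay between. Most of the 10 were among the more abundant of the 42. Their lowest FPKM over the 4 tables had a median of 15.1 and was at least 10 for 8 of 10 genes, against a median of 2.59 and 1 of 32 for the other expressed genes inside. The expressed genes just inside the limit were Cdk5rap1 with 51.6% of its body in a PML region, Zfp369 with 52.7% and Sgcd with 56.9%. Just outside it were Mrpl36 with 40.8%, Trappc9 with 40.4% and Auts2 with 38.3%.

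The MEFs came from Pml-null (KO) and WT mice of the C57BL/6 strain, were at passage 10 to 15 and were proliferating and untreated. Chromatin immunoprecipitation (ChIP) was done for PML, histone H3, H3K9me3, H3K27me3 and the histone variant H3.3 with either of 2 tags, Flag or HA, which gave 12 libraries, 1 for each target in each genotype. For H3.3 the KO and WT cells alike had been nucleofected with a plasmid for the tagged histone, whereas RNA came from cells that were not transfected. RNA was given as 4 tables, a numbered KO and WT pair that the authors pooled from 3 replicates per genotype and an unnumbered KO and WT pair from 1 sample each. How many embryos or cultures stood behind the samples was not stated, read depth was unknown, and no value below has a replicate, so every difference is one between 2 libraries or tables and none was tested.

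PML is the protein that builds PML nuclear bodies, nuclear compartments that also gather the H3.3 chaperone DAXX and its partner ATRX. H3.3 is placed into chromatin outside replication, at active genes and their regulatory elements and, through DAXX and ATRX, in heterochromatin. H3K9me3 marks heterochromatin bound by HP1 proteins, and H3K27me3 is the mark of Polycomb repression, which is usually absent from the body of a transcribed gene.

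Some series-wide values bear on these genes. Pml itself was at 10.2 FPKM in the KO numbered table and 15.0 in the WT one, and at 4.22 in the KO unnumbered table and 7.62 in the WT one. It was lower in KO in both pairs, and which exons these reads cover was not analysed here. Xist, the RNA of the inactive X, was at 0.0517 FPKM in the KO numbered table and 19.5 in the WT one, and the Y-linked Ddx3y at 7.67 in KO and 0.0384 in WT. In the numbered pair, genotype and sex therefore cannot be told apart. In the unnumbered pair both transcripts were present in both genotypes, with Xist at 8.25 FPKM in KO and 5.89 in WT and Ddx3y at 11.4 in KO and 21.7 in WT. The 16 fibroblast markers summed to 6141 FPKM in the KO and 12444 in the WT numbered table, and to 12163 in the KO and 14598 in the WT unnumbered table, with Vim, Col1a1 and Sparc among the most abundant in each. Not all were present, since Thy1 was at 0.100 FPKM in the KO and 0.140 in the WT numbered table, against 120 in the KO and 210 in the WT unnumbered table. In the numbered pair 6 of 14 measured were at least 2-fold lower in KO and 0 higher. No member lay in a region called for PML in KO. Of the WT PML region that holds Hpcal1, however, 73.3% was also called in the KO library, in a region that began 2.06 kb beyond the gene.

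The 7 members with an entry in the RefSeq promoter table (GRCm38.p6, the assembly of mm10) differed widely in the bases before their start. The 250 bases before the start held 30 CG dinucleotides in Msl3, 22 in Hpcal1, 17 in Crls1, 9 in Sgcd, 7 in Mrpl3, 4 in Med10 and 4 in Pdgfra, against a median of 6 (quartiles 2 and 16) over 27025 promoters of that length. So 3 members lay above the upper quartile and 2 below the median. Rcn1, Trnt1 and Ythdf3 had no entry. Crls1 and Pdgfra are not printed, and neither had an H3.3-Flag call over its annotated start in KO or WT. The 3 genes shown first had an H3.3-Flag call over the annotated start in both genotypes and the 2 shown after them in neither, and capitals mark each CG. They are Msl3 (chrX:168673873-168674122, minus strand), Hpcal1 (chr12:17690559-17690808, plus strand), Sgcd (chr11:47379326-47379575, minus strand), Mrpl3 (chr9:105053018-105053267, plus strand) and Med10 (chr13:69802120-69802369, plus strand), each printed 5′ to 3′ on the strand of the gene.
Msl3: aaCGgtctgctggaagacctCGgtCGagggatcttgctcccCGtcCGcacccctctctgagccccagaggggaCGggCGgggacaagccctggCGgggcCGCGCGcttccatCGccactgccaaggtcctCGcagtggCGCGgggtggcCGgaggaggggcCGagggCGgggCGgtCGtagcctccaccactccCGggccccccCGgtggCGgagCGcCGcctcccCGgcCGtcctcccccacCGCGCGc
Hpcal1: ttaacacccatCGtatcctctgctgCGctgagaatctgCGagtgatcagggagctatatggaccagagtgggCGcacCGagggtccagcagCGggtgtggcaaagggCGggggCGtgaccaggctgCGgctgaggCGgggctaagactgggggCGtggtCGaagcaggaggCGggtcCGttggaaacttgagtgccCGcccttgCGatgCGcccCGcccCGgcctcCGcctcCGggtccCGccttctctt
Sgcd: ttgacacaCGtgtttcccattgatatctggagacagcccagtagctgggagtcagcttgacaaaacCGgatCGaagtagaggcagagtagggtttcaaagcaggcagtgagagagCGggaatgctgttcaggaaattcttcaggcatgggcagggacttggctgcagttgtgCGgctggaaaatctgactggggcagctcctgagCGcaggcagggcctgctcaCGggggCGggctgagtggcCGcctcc
Mrpl3: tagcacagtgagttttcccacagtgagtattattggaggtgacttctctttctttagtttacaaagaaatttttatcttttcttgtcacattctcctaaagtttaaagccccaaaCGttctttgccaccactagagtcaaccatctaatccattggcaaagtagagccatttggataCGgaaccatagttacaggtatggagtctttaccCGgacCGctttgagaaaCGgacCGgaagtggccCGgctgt
Med10: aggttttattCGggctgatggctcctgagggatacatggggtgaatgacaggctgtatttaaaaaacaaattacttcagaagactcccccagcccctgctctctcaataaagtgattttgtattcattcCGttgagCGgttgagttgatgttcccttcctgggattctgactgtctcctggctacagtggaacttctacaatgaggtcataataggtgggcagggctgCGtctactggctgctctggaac
The motif GGGCGG, searched on both strands, was in these windows for Msl3, Hpcal1 and Sgcd and for no other of the 7, and 32.9% of all promoters held it. CCAAT was found in Mrpl3 alone (34.5% of all promoters) and CCGGAA in Mrpl3 alone (12.2%), while TATAAA was found in 0 of 7 (13.0%). These matches describe letters in a window and not sites of binding.

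The domains around the genes were long. The 10 regions had 26 genes with RNA values and at least 50% of the body inside, of which 13, the members and 3 others, were expressed in all 4 tables. This is not a full count of genes, since the region of Hpcal1 was touched by 22 protein-coding genes, with 2 of them counted. Gene density was not compared with that of other regions. WT PML regions holding a member ran from 470 kb for Crls1 to 3300 kb for Hpcal1, and 6 members (Rcn1, Med10, Mrpl3, Msl3, Trnt1 and Ythdf3) lay wholly inside theirs. The other 4 straddled a border, with 83.4% of Crls1, 61.2% of Hpcal1, 60.2% of Pdgfra and 56.9% of Sgcd inside. Their annotated starts fell outside the region in all 4, whereas Med10, Mrpl3 and Msl3 had starts inside. The start listed for Sgcd lies within the full span of the gene, so part of its body is upstream of that start. The 3 others were Nudt16 in the region of Mrpl3, Crbn in that of Trnt1 and 5730507C01Rik in that of Hpcal1. Neighbours with low RNA included Them7 6.09 kb left and Pax6 270 kb right of Rcn1, Kit 377 kb from Pdgfra and Cpne4 18.7 kb from Mrpl3. Il5ra, 20.1 kb from Trnt1, and Fermt1, 37.4 kb from Crls1, were low too. None of these was above 0.22 FPKM in any table. Arhgap6, 121 kb from Msl3, reached 2.27 FPKM in the KO and 1.10 in the WT unnumbered table. Lrrn1, 747 kb from Trnt1, reached 0.556 in KO and 0.331 in WT in the same pair.

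The members with a part in gene expression differed by less than 2-fold between KO and WT in both pairs. Med10, a subunit of the Mediator coactivator complex (chr13:69802348-69816102), had 47.1 FPKM in the KO and 67.4 in the WT numbered table, and 27.5 in the KO and 23.3 in the WT unnumbered table. Its KO minus WT difference of log2(FPKM + 1), the scale used throughout, was -0.51 in the numbered and 0.23 in the unnumbered pair, so its direction was not shared by the pairs. Msl3, the chromodomain subunit of the MSL complex that acetylates histone H4 (chrX:168651267-168674354), had 19.7 FPKM in KO and 17.6 in WT in the numbered pair and 20.6 in KO and 21.7 in WT in the unnumbered pair, differences of 0.15 and -0.07. Trnt1, the enzyme that adds the CCA end to transfer RNAs (chr6:106769138-106782474), had 16.4 in KO and 16.2 in WT and then 15.5 in KO and 15.1 in WT, differences of 0.02 and 0.03. Trnt1 had the narrowest range of the 10, its highest table being 1.09 times its lowest, and Msl3 came next at 1.23 times. Ythdf3, a cytoplasmic reader of m6A in messenger RNA (chr3:16183148-16217037), had 25.9 FPKM in KO and 13.4 in WT in the numbered pair and 28.9 in KO and 25.3 in WT in the unnumbered pair. Its WT numbered value was the low one of the 4, and the differences were 0.90 and 0.19, both under 2-fold.

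Mrpl3 and Crls1, 2 members of mitochondria, were higher in KO in both pairs by less than 2-fold. Trnt1, given above and listed below with mitochondrial transfer RNA processing, was nearly level, at 0.02 and 0.03. Mrpl3, a protein of the large subunit of the mitochondrial ribosome (chr9:105053268-105077466), had 48.5 FPKM in KO and 36.5 in WT in the numbered pair and 23.4 in KO and 21.0 in WT in the unnumbered pair, differences of 0.40 and 0.15. Crls1, the cardiolipin synthase of the inner membrane (chr2:132846650-132866786), had 20.1 in KO and 14.0 in WT and then 24.3 in KO and 22.7 in WT, differences of 0.49 and 0.10. The numbered tables stood above the unnumbered ones for Mrpl3 and below them for Crls1, in KO and in WT.

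The 2 calcium-binding members also differed by less than 2-fold between KO and WT in both pairs. Rcn1, reticulocalbin 1 of the endoplasmic reticulum (chr2:105385948-105399319), was the most abundant member, with 70.2 FPKM in KO and 72.4 in WT in the numbered pair and 123 in KO and 139 in WT in the unnumbered pair, differences of -0.04 and -0.17. Hpcal1, a calcium sensor of the visinin-like family (chr12:17690750-17791944), had 15.3 in KO and 15.0 in WT and then 23.5 in KO and 17.2 in WT, differences of 0.03 and 0.42. The unnumbered tables were thus higher than the numbered ones for both genes in both genotypes.

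The 2 members at the cell surface were those that passed 2-fold in at least 1 pair. Sgcd, the delta-sarcoglycan of the dystrophin complex in muscle membranes (chr11:46971077-47989451), had 2.61 FPKM in KO and 13.3 in WT in the numbered pair, and 31.7 in KO and 36.9 in WT in the unnumbered pair. The KO numbered table stood far below the other 3, with differences of -1.99 and -0.21. Of 7 skeletal muscle markers, which summed to 63.9 FPKM in KO and 73.6 in WT in the numbered pair and to 50.1 in KO and 32.9 in WT in the unnumbered pair, Des and Acta1 carried nearly all and went opposite ways. Des differed by 3.97 in the numbered and -1.90 in the unnumbered pair and Acta1 by -3.23 and 1.97, and their part in the Sgcd values was not tested. Pdgfra, a receptor tyrosine kinase for platelet-derived growth factor that marks mesenchymal cells (chr5:75151322-75198206), had 20.8 in KO and 4.97 in WT in the numbered pair, and 2.37 in KO and 23.3 in WT in the unnumbered pair. It was high in KO and low in WT in one pair and the reverse in the other, with differences of 1.87 and -2.85. Markers of macrophages, another cell type that cultures can hold, differed in the same unnumbered pair. Of 12 such genes measured, 11 were at least 2-fold lower in KO, and they summed to 13.0 FPKM in KO and 191 in WT, against 3.98 in KO and 2.94 in WT in the numbered pair. Several defining ones, such as C1qa and Tyrobp, were listed at 0 in both numbered tables. Fibroblast markers moved in that pair too, with 5 of 16 at least 2-fold lower in KO (Dcn -3.60, Lum -3.31, Fap -1.86, Postn -1.69 and Col3a1 -1.16) and 1 higher. The part of either marker list in the Pdgfra values was not tested, and in bulk RNA fewer cells of a type and less RNA per cell cannot be told apart.

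**Figure D1:**
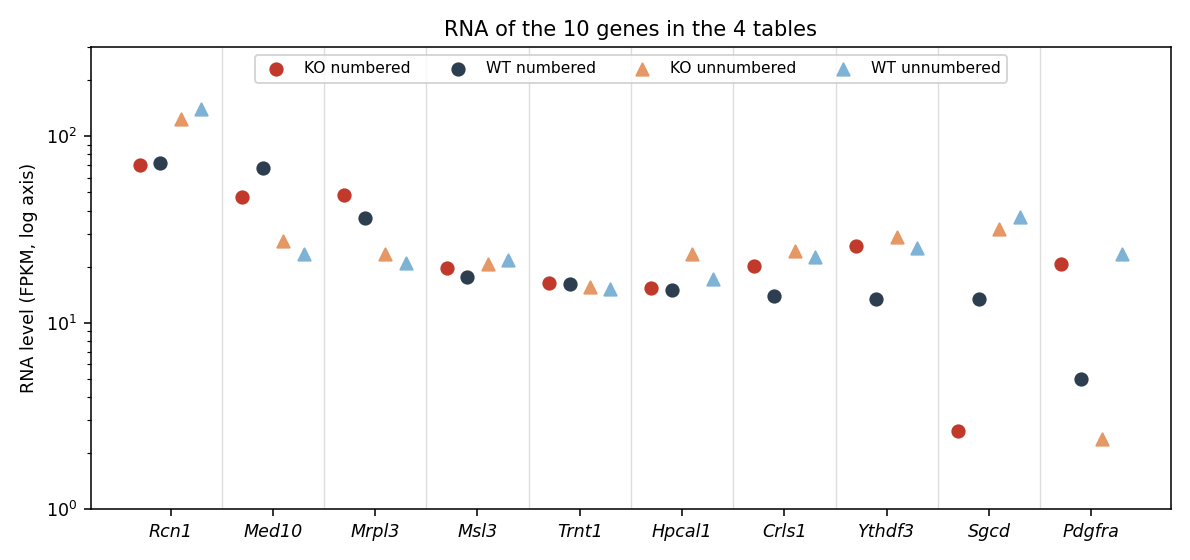
RNA level of each of the 10 genes in FPKM (log axis) in the KO and WT numbered tables (circles) and the KO and WT unnumbered tables (triangles), 1 value per table with no error bar. The 4 values lie close together for Trnt1 and Msl3, the KO numbered value of Sgcd (2.61) lies apart, and the KO and WT values of Pdgfra change places between the pairs.

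With a called difference set at 2-fold, 1 of 10 members was higher in KO in the numbered pair (Pdgfra), where 6.5% of 11055 measured genes were, and 1 was lower (Sgcd), where 15.7% of genes were. In the unnumbered pair 0 members were higher, against 1.74% of 11687 genes, and 1 was lower (Pdgfra), against 3.83%. No member was called in the same direction in both pairs, and shares of 1 in 10 are near the background. The median member difference was 0.09 in the numbered and 0.06 in the unnumbered pair, with medians over all measured genes of 0.06 and 0.01. Among the other 32 expressed genes inside PML regions, 0 were called higher and 4 lower in the numbered pair (Nnmt, Ndufs6, Ctla2a and Ctu1), and 0 higher and 3 lower in the unnumbered pair (Nnmt, Ctla2a and Gm13157). Of these, Nnmt, a methyltransferase of nicotinamide, was lower in KO in both pairs, by -5.21 and -2.99, and Ctla2a by -3.35 and -1.66. These genes were named after their values had been seen. The summed FPKM was 409078 in the KO and 948032 in the WT numbered table, and 499754 in the KO and 514537 in the WT unnumbered table. Bringing each numbered table to the same sum moved the median of all genes to 1.16, with 6385 genes called higher and 610 lower in place of 719 and 1737. It also turned Rcn1 to 1.16 and Med10 to 0.69, yet relative to the shifted median the members stood at a median of 0.10, Sgcd at -2.18 and Pdgfra at 1.90.

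**Figure D2:**
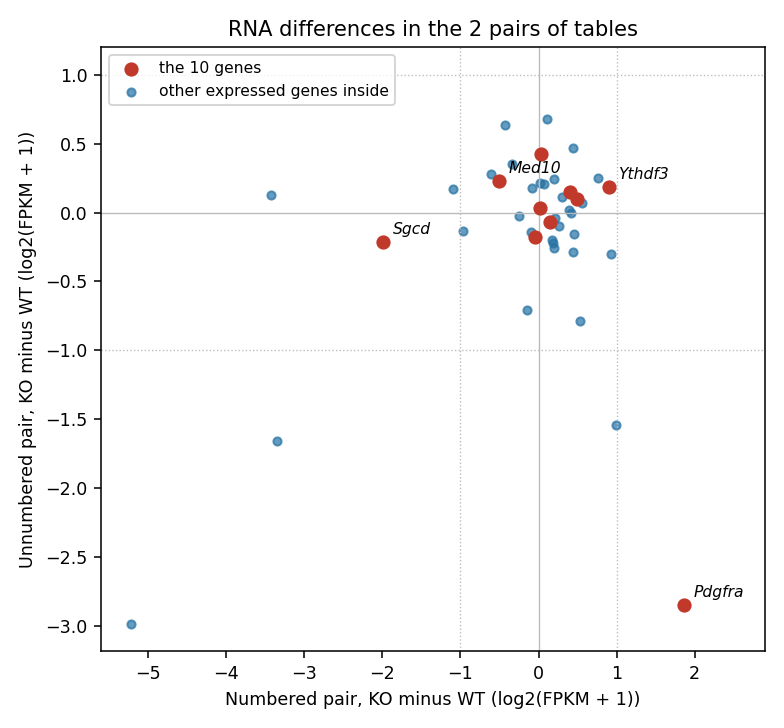
KO minus WT difference of log2(FPKM + 1) in the numbered pair (horizontal) and the unnumbered pair (vertical) for the 10 genes (red) and the other 32 expressed genes inside PML regions (blue), with dotted lines at 2-fold. Of the 10 genes, 8 lie within the dotted square, Sgcd lies to its left at -1.99 and Pdgfra to its lower right at 1.87 and -2.85.

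Around most members, H3K27me3 covered the sides and stopped at the gene. The body was covered less than the 50 kb on either side in 9 of 10 members in KO and 8 of 10 in WT, against 51.1% of all protein-coding genes in KO and 57.1% in WT. The mean member had 20.5% of its body and 78.7% of its sides called in KO, and 18.4% and 76.5% in WT. For 6 members (Rcn1, Mrpl3, Trnt1, Hpcal1, Crls1 and Ythdf3) 0% of the body was called in either genotype, although the sides together were called over 46.8% to 96.2%. Calls were not on both sides in each case. From 10 to 50 kb left of Crls1 5.88% was called in KO and 0% in WT, against 100% on the right in both. For Trnt1 in KO the same stretch was called over 100% on the left and 0% on the right. This dip was not particular to these genes, since 73.9% of expressed genes outside PML regions had it in KO and 85.1% in WT. The members' sides were more fully called, at means of 78.7% in KO and 76.5% in WT, than those of the expressed genes outside, at 30.7% in KO and 40.2% in WT. Much of this was shared by the other 32 expressed genes inside, whose sides had means of 62.4% in KO and 54.2% in WT. Of those 32 genes, 59.4% had the dip in KO and 75% in WT.

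Rcn1 gave the sharpest case. Its H3K27me3 regions ended 4.95 kb before its left end and began again 1.68 kb after its right end, leaving the same 20 kb uncalled in KO and in WT. To the left the KO and WT regions were both 358 kb long, with authors' signals of 38.0 in KO and 29.7 in WT, and to the right they were 295 kb in KO and 296 kb in WT. Around Mrpl3 the uncalled stretch was 31 kb in KO and 33 kb in WT, and around Ythdf3 it was 49 kb in KO and 50 kb in WT. Crls1 had 71 kb uncalled in KO and 74 kb in WT, and Hpcal1 120 kb in KO and 105 kb in WT. For these 5 genes each border of the opening lay at most 10 kb apart in KO and WT. Trnt1 differed, with 242 kb in KO and 35 kb in WT, the left border being 1.14 kb before the gene in KO and 2.14 kb in WT while the right border moved. The H3.3-Flag calls at Rcn1, a single 19 kb region in KO and regions of 10 and 5 kb in WT, lay mostly in this opening and each ran past one of its borders.

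**Figure D3:**
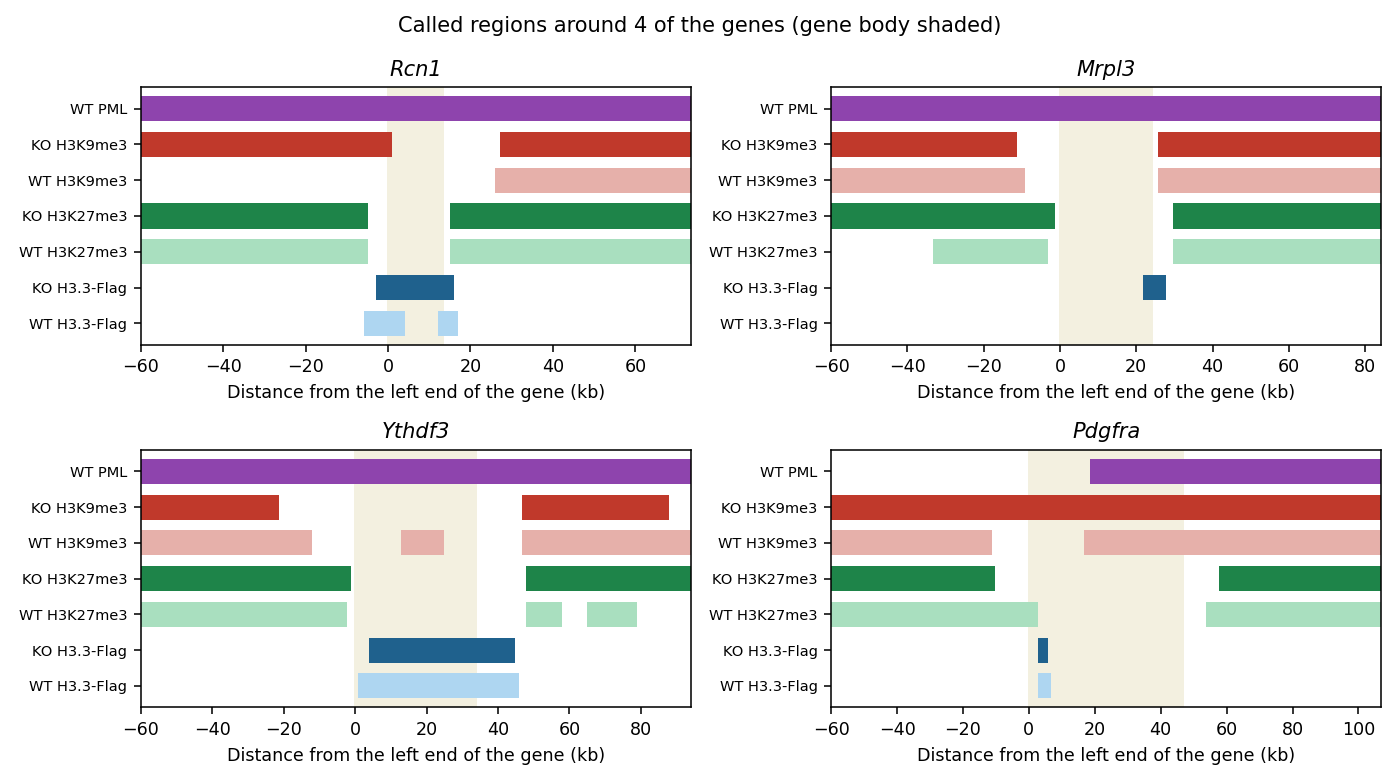
Called regions around Rcn1, Mrpl3, Ythdf3 and Pdgfra, with distance in kb from the left end of the gene on the horizontal axis, the gene body shaded and a bar for each region of the library named at the left. H3K27me3 leaves Rcn1, Mrpl3 and Ythdf3 uncalled in KO and WT alike, and KO H3K9me3 covers all of Pdgfra while WT H3K9me3 covers 64.4% of it.

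The other 4 members had some H3K27me3 call in the body in at least 1 genotype. Msl3, the member without the dip in both genotypes, was called for H3K27me3 over 100% of its body in both genotypes, in a region of 18448 kb in KO and 2087 kb in WT, while its RNA lay between 17.6 and 21.7 FPKM in the 4 tables. On the whole X chromosome H3K27me3 covered 98.9% in KO and 77.4% in WT, and in female cells the active and the inactive copy cannot be told apart here. Med10 was called over 48.4% of its body and 95.1% of its sides in both genotypes, and its annotated start was called in both. The start taken for each gene was the listed one nearest its outer end, and which start its RNA came from was not analysed. In both genotypes an uncalled stretch of 12 kb began 6.65 kb inside Med10 and ended 4.90 kb past its right end. Sgcd, the longest member at 1018 kb, had 56.8% called in KO and 29.7% in WT, and the difference came from the part inside the PML region, where 96.7% was called in KO and 49.3% in WT, against 4.10% in KO and 3.87% in WT of the part outside. Its sides were called over 61.9% in KO and 15.6% in WT, so in WT it too lacked the dip. Pdgfra had 0% of its body called in KO and 5.71% in WT, with 78.9% of its sides in KO and 93.2% in WT.

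H3K9me3 showed the dip more clearly in WT than in KO. The body was called less than its sides in 5 of 10 members in KO and 9 of 10 in WT, against 41.7% and 52.1% of all genes in KO and WT. Means were 34.0% of the body and 64.9% of the sides in KO, and 19.2% of the body and 57.3% of the sides in WT. Mrpl3 lay in an uncalled stretch of 37 kb in KO and 35 kb in WT, Crls1 in one of 63 kb in KO and 65 kb in WT, and Trnt1 in one of 478 kb in KO and 314 kb in WT. Around Mrpl3 the 2 WT H3K9me3 regions (chr9:104381001-105044000 and chr9:105079001-105356000) spanned almost the same stretch as the PML region (chr9:104380001-105360000), apart from the opening that holds the gene.

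At least 50% of the body was called for H3K9me3 in 3 members in KO and 1 in WT, against 24.7% of all genes in KO and 17.2% in WT. The 3 in KO were Med10, Msl3 and Pdgfra, at 100% each, and the 1 in WT was Pdgfra at 64.4%, with Med10 at 0% and Msl3 at 33.5%. Of the other expressed genes inside, 68.8% passed this limit in KO and 59.4% in WT, and of expressed genes outside 12.6% in KO and 4.10% in WT. A change of at least 50 percentage points toward more H3K9me3 in KO was seen in 2 members (Med10 and Msl3), against 13.6% of all genes, and toward less in 0, against 6.69%. Med10 differed by 100 points between the genotypes while its RNA difference was -0.51 in one pair and 0.23 in the other. All 3 genes covered in KO were also called in the KO library for total H3, and with bases called for H3 left out 0 members passed the limit in either genotype. For Pdgfra the region was 1117 kb long with an authors' signal of 13.3 in KO, and 607 kb with 1.16 in WT. Chromosome 5, which holds Pdgfra, was called for H3K9me3 over 77.4% of its length in KO and 41.2% in WT and for H3 over 53.0% in KO and 34.4% in WT, and the part of this in the Pdgfra values was not tested.

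For H3K27me3, at least 50% of the body was called in 2 members in KO (Msl3 and Sgcd) and 1 in WT (Msl3), against 31.5% of all genes in KO and 33.4% in WT. A change of at least 50 points was seen in 0 members in either direction, against 3.99% of all genes for more and 5.38% for less in KO. Silent genes inside PML regions were covered more often than the members. Of all 2007, 48.5% had at least 50% of the body called in KO and 28.0% in WT, the WT share being below that of all genes. Of the 589 silent genes at least as long as the shortest member, a length limit set after the data were seen, 68.9% had at least 50% of the body called in KO and 45.0% in WT. The same 589 genes reached this limit for H3K9me3 in 58.9% of cases in KO and 72.2% in WT. All 2007 silent genes did so in 38.0% of cases in KO and 74.1% in WT.

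**Figure D4:**
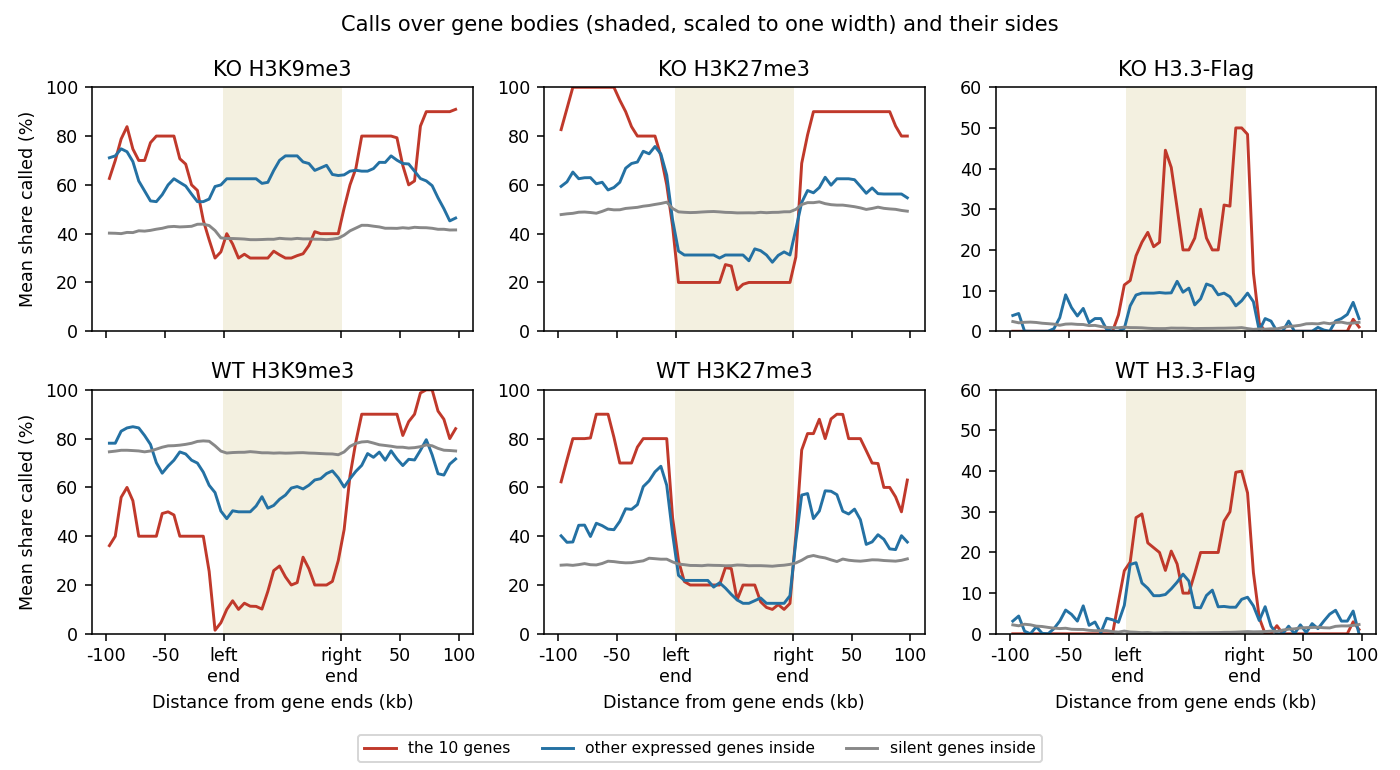
Mean share of each position called (vertical, %) for H3K9me3, H3K27me3 and H3.3-Flag in KO (top row) and WT (bottom row), along 100 kb on each side and the gene body scaled to 1 width (shaded), for the 10 genes (red), the other 32 expressed genes inside PML regions (blue) and 2007 silent genes inside (grey). H3K27me3 of the 10 genes drops at both gene ends in KO and WT, H3.3-Flag is raised over the body, and the grey lines stay flat.

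H3.3-Flag marked most members in both genotypes. A call lay in the body of 8 of 10 members in KO and 7 of 10 in WT, against 52.8% of all genes in KO and 58.2% in WT. For expressed genes outside PML regions the shares were 78.9% in KO and 85.8% in WT, and for the other expressed genes inside 31.2% in KO and 46.9% in WT. Silent genes inside that were at least as long as the shortest member had a call in 10.0% of cases in KO and 10.5% in WT. The members' counts were nearer to the shares of expressed genes outside than to those of silent genes inside.

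The calls were broad in Ythdf3, with 88.6% of the body in KO and 97.5% in WT, and in Rcn1, with 100% in KO and 40.2% in WT. Msl3 had 23.2% in both genotypes, Trnt1 18.6% in KO and 33.6% in WT, Hpcal1 24.0% in KO and 15.1% in WT, Pdgfra 6.40% in KO and 8.53% in WT and Sgcd 5.40% in KO and 4.32% in WT. Mrpl3 had 10.2% in KO and 0% in WT, and Med10 and Crls1 had 0% in both. The authors' signal in the broad Ythdf3 region was 6.88 in KO over 41 kb and 19.0 in WT over 45 kb, and in the Rcn1 regions it was 5.84 in KO and 19.1 and 40.6 in WT. The sources used here do not give whether signals can be compared between libraries. A change of at least 50 points was seen toward more in 1 member (Rcn1), against 2.69% of all genes, and toward less in 0, against 2.38%.

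At the annotated starts, the H3.3-Flag call of Msl3, Hpcal1 and Sgcd was present in KO and in WT. These are the 3 genes whose promoters were printed first. They also hold GGGCGG, but a link between motif and call was not tested. Crls1, with 17 CG, had neither. Pdgfra had its nearest call 1.75 kb from the start in both genotypes, whereas Crls1 had one 20.3 kb away in both, just past its far end. Of the 4 genes that straddle a border, Crls1 had no call in its body, Sgcd and Pdgfra had calls only in the part outside the PML region, and Hpcal1 had calls in both parts. Sgcd had 12.5% in KO and 10.0% in WT of its outer part called and 0% of its inner part in both, and Pdgfra had 16.1% in KO and 21.4% in WT of its outer part and 0% of its inner part in both. Hpcal1 had 22.6% in KO and 21.0% in WT of the inner part called and 26.1% in KO and 5.74% in WT of the outer part.

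H3.3 with the HA tag was called in 2 members in KO (Rcn1 and Sgcd), against 31.9% of all genes, and in 4 in WT (Rcn1, Hpcal1, Sgcd and Pdgfra), against 29.9%, counts near the background. Rcn1 had 100% of its body called in KO and 9.86% in WT, Sgcd 41.4% in KO and 0.196% in WT, Hpcal1 0% in KO and 16.1% in WT and Pdgfra 0% in KO and 93.2% in WT. A change of at least 50 points toward more was seen in 1 member (Rcn1), against 21.5% of all genes, and toward less in 1 (Pdgfra), against 3.06%. The KO region over Rcn1 was 710 kb long with an authors' signal of 0.807, whereas the WT region over Rcn1 was 4 kb with 26.0. Sgcd had KO regions of 32 kb with a signal of 1.07, 31 kb with 1.56 and 1244 kb with 0.0368. Ythdf3, the member with the broadest Flag call in WT, had 0% called for HA in both genotypes. The WT HA region over Pdgfra was 47 kb long with a signal of 7.28.

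Total H3 calls, which carry no mark, covered 100% of Rcn1, Med10 and Hpcal1 in both genotypes and 0% of Trnt1, Ythdf3 and Sgcd in both. Msl3 had 100% in KO and 0% in WT, Pdgfra 100% in KO and 81.5% in WT, and Mrpl3 and Crls1 0% in KO and 100% in WT. A change of at least 50 points toward more was seen in 1 member (Msl3), against 15.9% of all genes, and toward less in 2 (Mrpl3 and Crls1), against 3.53%. Of the other 32 expressed genes inside PML regions, 1 changed toward more and 9 (28.1%) toward less. Less H3 cover in KO was therefore not particular to the members. At Mrpl3 and Crls1 this went with 0% H3K9me3 and 0% H3K27me3 in both genotypes.

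**Figure D5:**
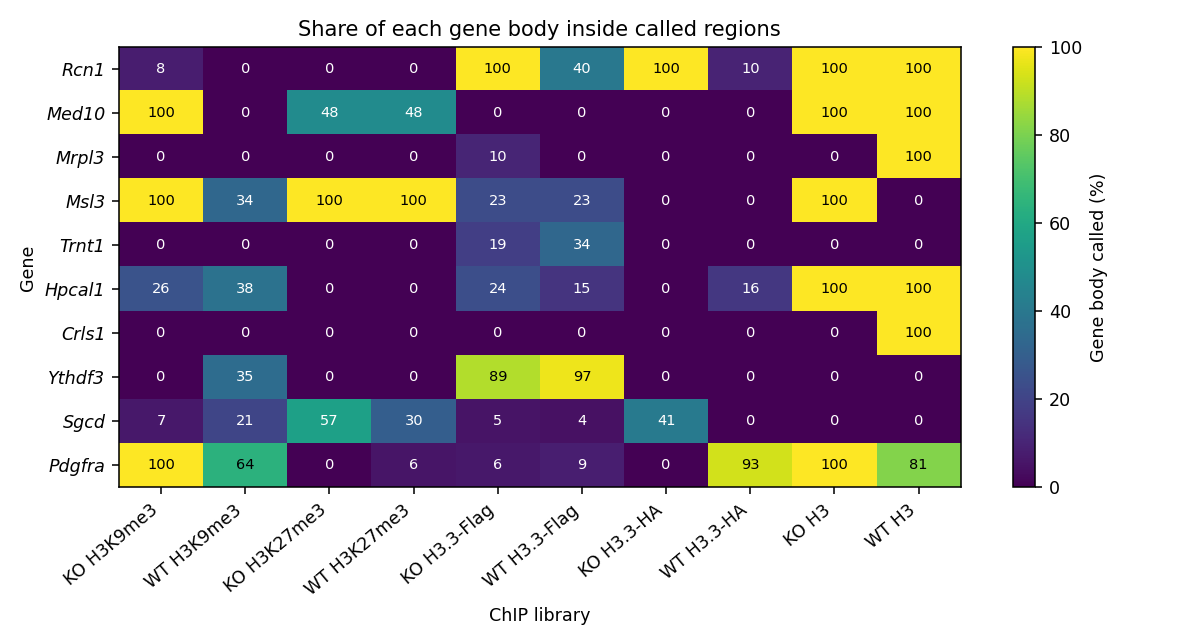
Share of each gene body (%) inside called regions, with the 10 genes down the page and the KO and WT library of each target other than PML side by side. Trnt1 is at 0 apart from H3.3-Flag (18.6% in KO, 33.6% in WT), and Msl3 is at 100 in KO for H3K9me3, H3K27me3 and H3.

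Genes that share a pathway with each member served as context, from lists of known partners. In 9 of the 10 lists the member was the only gene with at least 50% of its body in a PML region, and in the calcium sensor list Kcnip4 was the other. In the numbered pair these counts stand beside 6.5% of all genes called higher and 15.7% called lower in KO, and in the unnumbered pair beside 1.74% and 3.83%. Of the 32 Mediator subunits measured, 0 were called higher and 3 lower in KO in the numbered pair and 0 in either direction in the unnumbered pair. Of 46 large-subunit proteins of the mitochondrial ribosome, 1 was higher and 20 lower in the numbered pair, with a median of -0.76, and 0 were called in the unnumbered pair, with a median of -0.02. Mrpl3 at 0.40 was thus above the median of its partners in the numbered pair. Sides of zero depend on scaling here. Bringing the numbered tables to the same sum moved Mrpl3 to 1.60 and the median of all genes to 1.16. The list counts and medians given here are for the deposited values. Of 13 readers, writers and erasers of m6A, 0 were called in either pair, with medians of 0.42 and -0.01, and Ythdf3 had the highest numbered difference of them at 0.90.

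The 4 proteins of the MSL complex had 0 calls in either pair. Of 12 genes of mitochondrial transfer RNA processing, 1 was higher and 1 lower in the numbered pair and 0 were called in the unnumbered pair. Of the 11 cardiolipin genes, 1 was higher and 2 lower in the numbered pair, and of the 10 measured in the unnumbered pair 0 were called. In the dystrophin complex 1 was higher and 2 lower of 11 measured in the numbered pair, Sgcd among the lower, and 0 of 12 in the unnumbered pair. The CREC family of Rcn1 had 0 higher and 1 lower of 5 in the numbered pair, with 0 calls in the unnumbered one, and the calcium sensors 1 higher and 1 lower of 5, and 0 of 4. No partner was called in the same direction in both pairs.

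The 6 PDGF ligands and receptors are given in more detail, a choice made after their values had been seen, and 2 were higher and 2 lower in the numbered pair, and 0 higher and 1 lower in the unnumbered pair. Pdgfrb, the sister receptor, had 22.1 FPKM in KO and 70.8 in WT in the numbered pair and 93.4 in KO and 87.7 in WT in the unnumbered pair. Its differences were -1.64, opposite in direction to Pdgfra, and 0.09, which is nearly level. Pdgfa, a ligand of Pdgfra, had 27.4 in KO and 107.5 in WT and then 37.9 in KO and 30.3 in WT, differences of -1.94 and 0.32. Pdgfc, another ligand, was higher in KO in both pairs, by 1.70 and 0.68, of which only the first passed 2-fold. The call in the unnumbered pair was Pdgfra itself.

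Among the other 32 expressed genes inside PML regions, those most like the mean of the 10 in body cover over the 12 ChIP libraries were Tssc1, Exo1, Cdca7l, Apmap and Zfp317, at Euclidean distances of 86.7 to 94.5 percentage points. The 10 genes themselves lay 79.5 (Hpcal1) to 154.8 points (Msl3) from that mean, so the group was not tight. The 5 others with the highest lowest-table FPKM were Ndufs6, Wbscr17, Tssc1, Slc15a4 and Zfp317. Ndufs6, a subunit of respiratory complex I, had 51.2 FPKM in KO and 559 in WT in the numbered pair and 71.1 in KO and 64.9 in WT in the unnumbered pair, and the other 4 had a lowest value between 6.44 and 8.61 FPKM. The FPKM of genes that overlap is uncertain, because the sources used here do not give whether counting was strand-aware. This concerns Trnt1, which overlaps Crbn by 4231 bases, and Crls1, which overlaps Lrrn4 by 101 bases, where Crbn had 4.73 to 13.3 FPKM and Lrrn4 at most 0.951. It also concerns Hpcal1, which overlaps the long non-coding RNAs Gm40842 by 13809 bases and Gm51995 by 8798 bases, both with no RNA value here.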

How the data were processed

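RNA and ChIP files of KO and WT fibroblasts were analysed as deposited. Per the labels, RNA came from 3 numbered replicates per genotype, which the authors pooled into 1 table each, and from 1 unnumbered sample per genotype. Values in the deposited RNA tables were FPKM per gene. For ChIP the authors deposited called regions, with a signal and a score per region made by the authors for H3.3, H3K9me3 and H3K27me3 and a score alone for H3 and PML. Bowtie 1.0.0, TopHat2 2.0.8b, Cufflinks 2.2.1, Cuffdiff 2.2.1 and mm10 were named in the submitters' processing notes, while the sources used here do not give the caller of the regions. Depth was therefore unknown, and no interval or limit of detection was computed.

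Repeated names were dropped, as were lines with more than 1 gene (267 or 271 a table), which left 22593 genes in all tables, of which 99.5% matched RefSeq (GRCm38.p6) by symbol. An RNA difference was log2(FPKM + 1) in KO minus that in WT, for genes with at least 1 FPKM in either genotype. The pseudocount lessens the differences of low genes. Cover was the share of a gene body, its 50 kb sides or its start inside called regions, where 0% says only that no region was called. With 1 value per genotype no test was made. Calls (2-fold, or 50 percentage points of cover) were read beside the share of all genes called. Region borders are in steps of 1 kb, and of 10 kb for PML and H3. The cover and difference steps were tested on simulated data. Python 3.11.15, numpy 2.4.6, pandas 2.3.3 and matplotlib 3.10.9 were used.

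The members, partner lists and markers were chosen with earlier results of these data known. The genes named were the members, every expressed gene in their PML regions and some of the nearest neighbours there that do not overlap a member. The rule also took partners called in the same direction in both pairs, and of the wider set the 5 highest and the 5 most alike in cover. Named outside this rule, after their values were seen, were genes of the PDGF and marker lists, Nnmt, Ctla2a, Ctu1 and Gm13157, and the genes nearest the limit of PML cover. Pseudocount, minimum FPKM, scaling, centring, signal minimum, H3 bases, added sides and the limit of PML cover were varied.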

Additional observations from a re-analysis of the deposited data

Results flagged for a closer look

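Pdgfra, the receptor for platelet-derived growth factor, moved in opposite directions in the 2 pairs of RNA tables. Its KO minus WT difference of log2(FPKM + 1) was 1.87 in the numbered pair, with 20.8 FPKM in KO and 4.97 in WT, and -2.85 in the unnumbered pair, with 2.37 FPKM in KO and 23.3 in WT. Both differences passed 2-fold, and the difference between the pairs was not tested, since each genotype and pair had 1 table. Groups of 1 table are too small for a check of outlying samples.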

How the results depend on the processing

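No paired analysis was possible because the authors pooled the numbered replicates before deposit and the columns carry no single replicate; for the same reason no replicate could be left out. Of 100 alternatives for single members' RNA differences (5 settings in 2 pairs), 93 stayed on the same side of the 2-fold line. Another 7 crossed it and 0 reversed a called difference, and all 7 came from bringing the numbered tables to a sum of 1000000. The settings with no minimum FPKM and with a minimum of 5 only choose which genes are kept. All members were kept under both, so these settings could not move a member, and the 93 include them. That setting called 8 members higher in KO in place of 1, with a median of 1.26 in place of 0.09, while the median of all genes moved by about as much. The number of members with at least 50% of the body called for H3K9me3 became 0 in KO and 0 in WT without bases called for H3, and 0 in WT at a signal of at least 3. For H3K27me3 it became 1 in KO at that signal, 1 in KO and 0 in WT without H3 bases, and 3 in KO and 2 in WT with 10 kb added on each side. Members with an H3.3-Flag call in the body or 1 kb before the start became 3 in KO and 3 in WT without H3 bases. For H3.3-HA they became 0 in KO at a signal of at least 3, and 1 in KO and 1 in WT without H3 bases. The smaller number of bases left is part of how the H3 setting is built. A PML cover of at least 90% kept 6 members, an annotated start inside the region kept 3, and a minimum of 5 FPKM left 16 of the 42 expressed genes inside. How signal values of the region lists are scaled is unknown, so a minimum of 3 need not mean the same in each library. Unknown depth limits every statement on an uncalled gene.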
